A study of Homo sapiens with 6 samples.

Results

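Interferon-stimulated genes are the genes that cells transcribe in response to interferons, and 44 of them, taken by symbol, were followed here among the 21314 entries of a transcriptome of PDZK1 overexpression. RNA-seq had been performed on ARPE-19 cells, an established human retinal pigment epithelial (RPE) cell line, to ask which transcripts change when PDZK1 is overexpressed under high glucose. PDZK1 is a PDZ-domain scaffold protein that anchors transporters and receptors at the plasma membrane. In the control group the cells carried a control lentivirus, and in the PDZK1 group a lentivirus overexpressing PDZK1. Transduction was at a multiplicity of infection of 10 in both groups, puromycin at 4 µg/ml selected the transduced cells, and 37.5 mM glucose was then given over 48 h, so lentivirus, puromycin and high glucose were shared by all 6 libraries. There were 3 libraries in each group. Nothing in the labels says that they came from separate transductions or cultures, and the p-values therefore measure only the spread between these samples, which may be technical.

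Interferons bind receptors that activate the kinases JAK1 and TYK2, which phosphorylate transcription factors such as STAT2. Together with IRF9, STAT2 is part of a complex that enters the nucleus and binds the interferon-stimulated response element (ISRE) in the promoters of its targets. The products of these targets sense viral RNA, degrade it, block translation, restrict entry or tag proteins with ISG15, and the RPE, as part of the barrier between retina and choroid, is able to mount this response. In a bulk sample, fewer cells using a gene and less RNA per cell cannot be told apart.

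The ISRE core was found in the promoters of many of these genes but not of all, and 5 promoters with a match are printed because their genes carry the results below. The windows come from the RefSeq promoter table (GRCh38.p14), are printed 5′ to 3′ on the strand of the gene, and end at the base before the gene's own annotated exon. None overlaps an exon of GENCODE release 29. Capitals mark each full match to the ISRE core, which was searched as GAAA, then any 2 bases, then GAAA, on both strands, so that a match on the reverse strand reads TTTC, any 2 bases, TTTC.
IFI44L: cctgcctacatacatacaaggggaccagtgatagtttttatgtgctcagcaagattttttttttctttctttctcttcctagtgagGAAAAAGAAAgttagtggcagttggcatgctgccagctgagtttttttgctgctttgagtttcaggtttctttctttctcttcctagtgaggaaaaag
IFIT1: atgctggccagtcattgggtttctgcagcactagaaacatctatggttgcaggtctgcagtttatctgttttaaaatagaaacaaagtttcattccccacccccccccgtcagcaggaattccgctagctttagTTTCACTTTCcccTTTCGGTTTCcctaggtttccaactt
ISG15: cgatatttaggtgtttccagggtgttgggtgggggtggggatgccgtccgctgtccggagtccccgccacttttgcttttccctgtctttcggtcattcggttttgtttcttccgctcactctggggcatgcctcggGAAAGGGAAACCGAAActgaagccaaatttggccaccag
OAS3: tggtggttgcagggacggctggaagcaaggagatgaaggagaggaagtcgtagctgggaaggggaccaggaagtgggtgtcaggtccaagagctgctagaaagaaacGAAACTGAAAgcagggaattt
SAMD9: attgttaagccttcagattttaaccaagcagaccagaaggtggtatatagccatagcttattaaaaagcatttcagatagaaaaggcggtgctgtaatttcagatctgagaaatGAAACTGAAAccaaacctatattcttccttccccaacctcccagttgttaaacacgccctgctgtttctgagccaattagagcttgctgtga
The IFI44L window (chr1:78620198-78620381, plus strand) lies inside the annotated span of IFI44L, upstream of the exon at which the RefSeq window was cut, and it holds a direct repeat of 32 bases whose copies are 91 bases apart. The match in capitals begins in the first copy, and the second copy ends at the edge of the window, where another match of the promoter is cut off. In the full promoter the repeat runs on past that edge, so 32 bases is its length inside the window only. The IFIT1 window (chr10:89392373-89392545, plus strand) lies within the span of LIPA, a gene on the opposite strand, and holds 2 matches on the reverse strand. In the ISG15 window (chr1:1013247-1013422, plus strand), which lies inside the span of a longer annotated ISG15 transcript, 2 matches overlap. The OAS3 window (chr12:112938224-112938351, plus strand) lies within an antisense RNA, AC004551.1, and the SAMD9 window (chr7:93118024-93118229, minus strand) lies outside annotated genes. Each of these last 2 windows holds 1 match, and a further match of the OAS3 promoter lies past the end of its window.

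Of the 44 genes, 37 had an entry in the promoter table, with 50 promoters among them. The ISRE core was found in 62.0% of these promoters against 3.57% of the 35116 promoters in the table, each 250 bases before to 50 bases after a start. Counted by gene, 26 held an ISRE core in a promoter and 11 did not. A match is a description of the letters and not evidence of binding.

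The 6 libraries held 27970618 to 32804567 estimated counts, and a count of 3, the most that a count of 0 allows, corresponded to 0.0915 to 0.109 CPM, the count scaled to the size of the library. PDZK1 itself stood at 0.588, 0.583 and 0.834 CPM in the control libraries and at 94.2, 77.5 and 89.2 CPM in the PDZK1 libraries, a log2 fold change of 7.03 (SE 0.13, edgeR quasi-likelihood test, adjusted p = 8.16e-09). Of 13 RPE markers, RPE65 and TTR were at 0 counts in every library, and the summed level of the list ran from 1920 to 2160 CPM in the control group and from 1970 to 2440 CPM in the PDZK1 group. The epithelial keratins KRT8 and KRT18 held most of this sum, with control means of 1152 and 782 CPM. OTX2 and MITF averaged 63.6 and 42.2 CPM in control, and every other marker averaged at most 6.53 CPM there. PDZK1 replicate 1 stood apart at BEST1, a chloride channel of the RPE, with 358 CPM against 4.32 to 5.60 CPM in the other libraries. The BEST1 value of that library enters the sum given for the PDZK1 group. Of 5 leukocyte markers, 3 were at 0 in every library and the sum stayed at or under 0.366 CPM, and the 3 endothelial markers summed to at most 0.687 CPM.

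Across the PDZK1 and control groups, 1 interferon-stimulated gene passed the threshold, and the others were spread unevenly over the PDZK1 libraries. Of the 44 genes, 42 passed the filter on low counts and were tested. SAMD9 rose, no gene fell, and 3.83% of the 13645 genes tested passed the same threshold in either direction (1.41% higher and 2.41% lower; edgeR quasi-likelihood test, Benjamini-Hochberg adjusted p under 0.05). The estimated log2 fold change lay above 0 for 36 genes and below 0 for 6, against 49.9% of all genes above 0. Its median was 0.32, against 0.00 for all genes tested. At an unadjusted p under 0.05 there were 10 of the 42, against 17.5% of all genes. The 2 genes below the filter were MX2, a nuclear GTPase that blocks retroviral entry into the nucleus, with 0 counts in each control library and 9, 0 and 4 in the PDZK1 libraries, and XAF1, a pro-apoptotic factor, with 0, 0 and 2 counts against 2, 0 and 7.

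SAMD9 (ENSG00000205413, chromosome 7, 93099513 to 93118023 on the minus strand, GRCh38) encodes a cytoplasmic protein that restricts poxviruses and growth. It was measured at 3.19, 2.88 and 3.23 CPM in the control libraries and at 12.6, 7.81 and 9.11 CPM in the PDZK1 libraries. Each PDZK1 library lay above each control library, and the lowest of them was well above the highest control. The group means were 3.10 ± 0.19 and 9.85 ± 2.50 CPM (SD, n = 3), which gave a log2 fold change of 1.67 with a 95% interval from 1.25 to 2.08 (SE 0.19, edgeR adjusted p = 0.00129). Without PDZK1 replicate 1, the highest library, it was 1.45 (edgeR adjusted p = 0.00745), in a fit where 1.31% of all genes passed. On the FPKM scale the transcript was scarce, at a mean of 0.417 in the control group and 1.34 in the PDZK1 group.

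SAMD9L, the paralog that lies beside SAMD9 on chromosome 7 (93130055 to 93148369, minus strand) and likewise limits growth, had 29.3, 31.7 and 29.5 CPM in the control libraries and 54.6, 33.9 and 41.9 CPM in the PDZK1 libraries. The groups did not overlap, but the PDZK1 libraries were far apart from one another. The log2 fold change of 0.53 (SE 0.18) did not pass in the edgeR test (adjusted p = 0.199), whereas it passed with DESeq2 (adjusted p = 0.0104), which called 5.4% of its genes, and, in edgeR, without PDZK1 replicate 2 (0.68, adjusted p = 0.0277), where 2.12% of genes passed. SAMD9 and SAMD9L are near relatives, and how reads shared by both were assigned is not given in the sources used here.

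**Figure D1:**
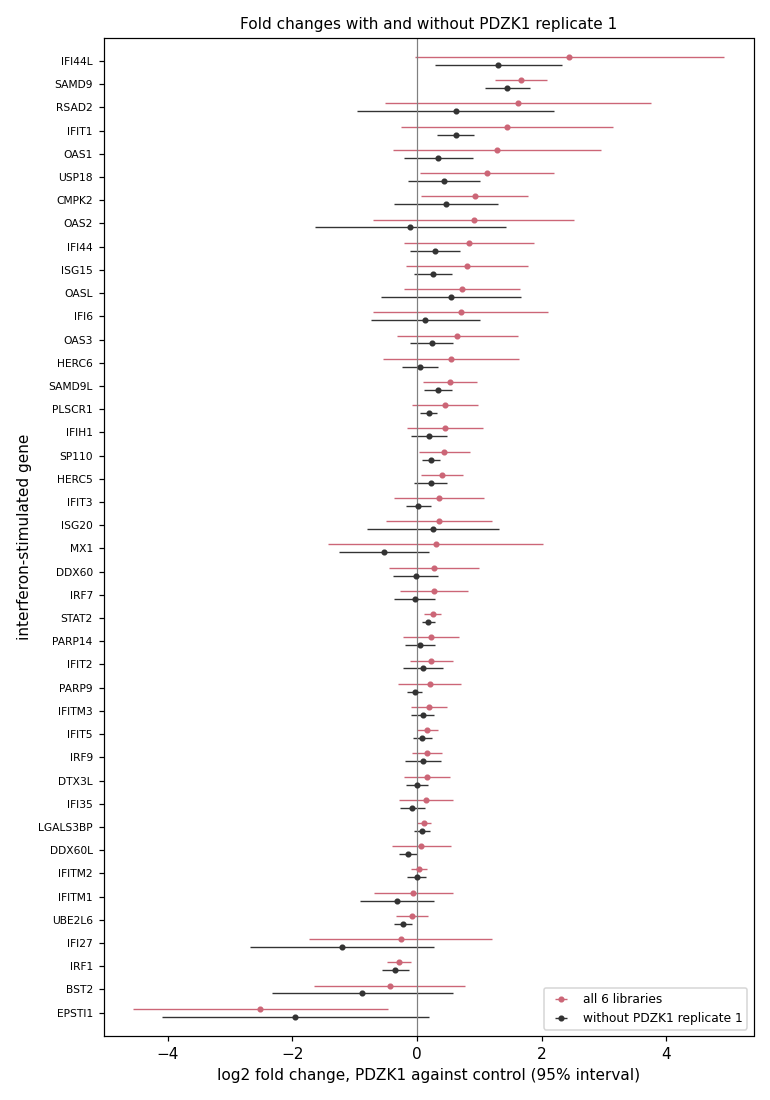
Log2 fold change of each of the 42 tested interferon-stimulated genes in PDZK1 against control (x axis) with its 95% interval, in all 6 libraries and without PDZK1 replicate 1. SAMD9 lies at 1.67 and 1.45, while the median over the genes moves from 0.32 to 0.09 when that library is left out.

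The library with the highest level was the same for most of these genes. PDZK1 replicate 1 was the highest of the 6 libraries for 37 of the 42 genes (88.1%), and for 14.4% of all genes tested. The median gene lay 1.67-fold above the mean of the control libraries in PDZK1 replicate 1, 1.02-fold in PDZK1 replicate 2 and 1.14-fold in PDZK1 replicate 3. In that first library 15 genes exceeded 2 times the control mean. SAMD9 alone did so in PDZK1 replicate 2, and SAMD9 and IFI44L did so in PDZK1 replicate 3. For 18 of the 42 genes PDZK1 replicate 1 was over 1.5 times the next highest library, and over all genes tested this held for 47 (0.344%). These are descriptions, since the library was singled out after its values were seen.

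**Figure D2:**
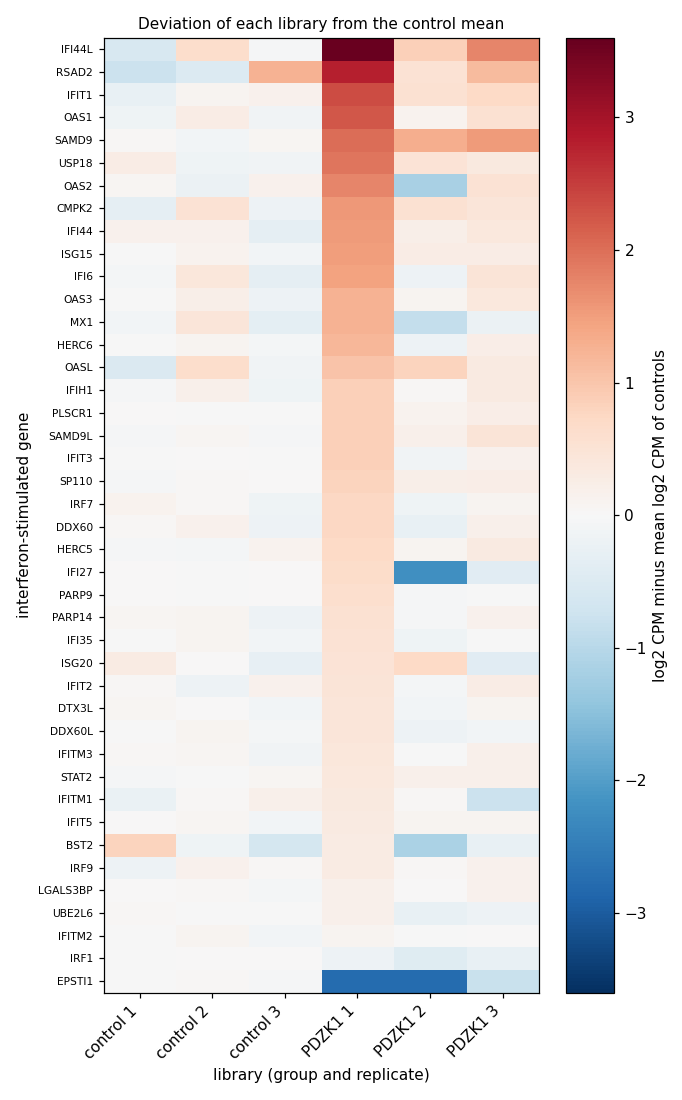
Log2 CPM of each tested interferon-stimulated gene (rows, ordered by the value in PDZK1 replicate 1) in each library (columns), in color, as the difference from the mean of the 3 control libraries. The column of PDZK1 replicate 1 is above the control mean nearly throughout, up to 3.56 for IFI44L, whereas PDZK1 replicate 2 has a median of 0.03 and PDZK1 replicate 3 of 0.19.

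The spread within the PDZK1 group was correspondingly wide. From the lowest to the highest library of a group, the median gene spanned 1.20-fold in control and 1.82-fold in PDZK1, and the PDZK1 range was the larger for 39 of the 42 genes (92.9%), against 42.9% of all genes. The remaining PDZK1 libraries were not alike either: PDZK1 replicate 3 exceeded PDZK1 replicate 2 for 35 genes (83.3%, against 50.0% of all genes). It lay above every control library for 26 genes (61.9%, against 28.2% of all genes), whereas the 14 genes for which PDZK1 replicate 2 did so (33.3%) were near the 27.8% of all genes. Within the control group, replicate 2 was the highest for 25 of the 42 genes, against 29.9% of all genes, so the controls differed at these genes too. Without PDZK1 replicate 1 the median log2 fold change fell to 0.09, with 28 genes above 0 and 14 below, and the number whose estimate exceeded 1.5-fold in either direction dropped from 14 to 7. Because that library was singled out for its high values at these genes, lower numbers follow from the choice. They describe only how much of the estimates it carries. Without PDZK1 replicate 2 or 3 the median was 0.51 or 0.44. Transgene level in PDZK1 replicate 1 was also the highest of its group, at 94.2 CPM, and the parts that transgene level and the BEST1 reads of that library play in the result were not tested.

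Among the transcription factors, STAT2, a subunit of the complex that binds the ISRE, was the most abundant per length, with a mean of 47.7 FPKM in control. Its level was 206, 212 and 224 CPM in the control libraries and 279, 243 and 242 CPM in the PDZK1 libraries. The groups did not overlap and the difference was small. The log2 fold change of 0.25 (SE 0.06) missed the threshold in edgeR (adjusted p = 0.0563) and passed with DESeq2 (adjusted p = 0.00455) and in edgeR with library totals in place of TMM scaling (adjusted p = 0.0393), a setting that called 3.79% of genes. SP110, a nuclear body protein, stood at 25.8, 27.3 and 26.7 CPM in control and 46.2, 30.7 and 31.4 CPM in PDZK1 (log2 fold change 0.44, edgeR adjusted p = 0.249). IRF1, a transcriptional activator of interferon responses, was at 18.9, 19.5 and 19.2 CPM in control and 16.9, 14.1 and 16.1 CPM in PDZK1, so that its groups did not overlap in the opposite direction (−0.29, edgeR adjusted p = 0.0983). IRF7 and IRF9 overlapped between the groups, with log2 fold changes of 0.27 and 0.16.

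The sensors and effectors of viral RNA formed the largest role group. All 12 had estimates above 0 (median log2 fold change 0.40), against 49.9% of all genes, and none was past the threshold. Without PDZK1 replicate 1, DDX60 (−0.024), DDX60L (−0.141) and OAS2 (−0.105) were below 0. IFIT1, which binds RNA lacking the cap modification of the host, had 16.5, 21.0 and 22.0 CPM in the control libraries and 101, 28.8 and 32.2 CPM in the PDZK1 libraries. All PDZK1 libraries were above control, and PDZK1 replicate 1 was 3.13 times the next highest library. The log2 fold change was 1.45 with a 95% interval from −0.25 to 3.14 (edgeR adjusted p = 0.354), and without that library it was 0.62, with an interval of 0.33 to 0.92 (edgeR adjusted p = 0.0788). IFIT1 lies within LIPA on the opposite strand, so reads of the pair cannot be separated unless strand was counted, and LIPA showed a log2 fold change of −0.01.

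OAS1, a synthetase of the 2′-5′-oligoadenylates that activate RNase L, followed the same order with 2.54, 3.43 and 2.57 CPM in control and 13.5, 3.08 and 4.13 CPM in PDZK1. Here PDZK1 replicate 2 lay among the controls, and the log2 fold change of 1.28 had an interval from −0.39 to 2.95 (edgeR adjusted p = 0.405). Its neighbor OAS3, the family member for long RNA, had 42.4, 50.2 and 37.7 CPM in control and 102, 46.0 and 56.1 CPM in PDZK1. Again the first PDZK1 library exceeded the rest, at 1.82 times the next. IFIT3, a partner of IFIT1 and per length the most abundant of this group at 16.5 FPKM in control, ranged from 44.2 to 45.7 CPM in control and read 81.0, 41.1 and 50.0 CPM in PDZK1. Its controls were nearly equal, and PDZK1 replicates 2 and 3 lay on either side of them (0.35, edgeR adjusted p = 0.602).

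The GTPases and nucleotide enzymes were expressed at low levels. MX1, a dynamin-like GTPase that traps viral nucleocapsids, had 9.60, 13.8 and 8.04 CPM in control and 24.2, 5.64 and 8.86 CPM in PDZK1. PDZK1 replicate 1 was the highest library and PDZK1 replicate 2 the lowest, and the estimate of 0.30 turned to −0.53 without PDZK1 replicate 1. RSAD2 (viperin), which makes a chain-terminating nucleotide, had 0.310, 0.389 and 1.45 CPM in control and 4.34, 0.854 and 1.32 CPM in PDZK1, and its log2 fold change of 1.62 had an interval from −0.51 to 3.75. CMPK2, the mitochondrial nucleotide kinase that neighbors RSAD2 on chromosome 2, differed by 0.93 (edgeR adjusted p = 0.246), with 3.28 CPM in PDZK1 replicate 1 and 0.836 to 1.59 CPM in the other libraries.

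In the ubiquitin-like and ADP-ribosylation group, PDZK1 replicate 1 was the highest library for all 8 genes. ISG15, the modifier itself, was at 6.19, 6.77 and 5.76 CPM in control and at 17.8, 7.45 and 7.44 CPM in PDZK1. PDZK1 replicates 2 and 3 lay just above the controls, and the log2 fold change of 0.80 (edgeR adjusted p = 0.379) became 0.26 (edgeR adjusted p = 0.453) without PDZK1 replicate 1. USP18, the protease that removes ISG15 and dampens receptor signaling, was at 2.38, 1.78 and 1.81 CPM in control and 7.65, 2.81 and 2.55 CPM in PDZK1 (1.12, edgeR adjusted p = 0.268). UBE2L6, the conjugating enzyme for ISG15 and the most abundant of the group per length at 31.1 FPKM in control, was at 43.0, 41.3 and 40.9 CPM in control and at 47.2, 34.4 and 36.8 CPM in PDZK1. Its PDZK1 libraries lay on both sides of the controls, with an estimate of −0.08 and an interval from −0.34 to 0.18.

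**Figure D3:**
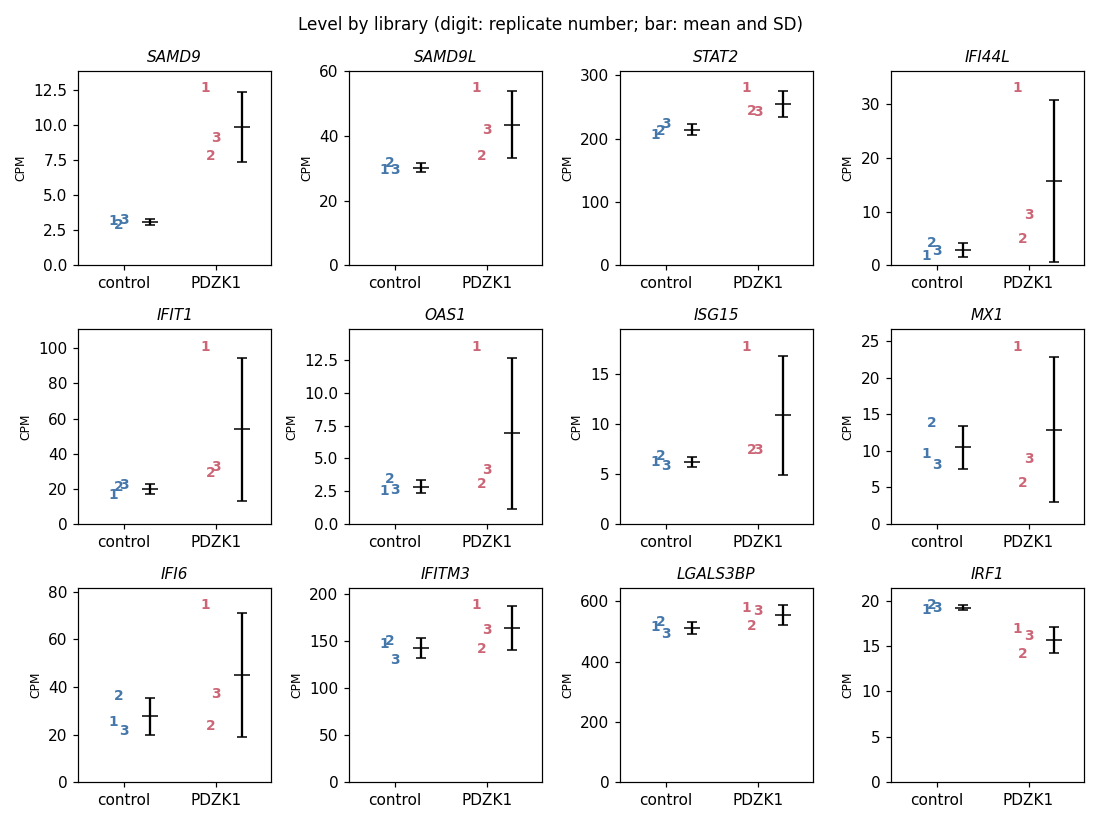
CPM of 12 interferon-stimulated genes (y axis, linear, 1 panel per gene) by group (x axis), with a digit at the value of each replicate and a bar for the mean and SD of the 3 libraries. SAMD9, IFI44L, IFIT1 and ISG15 are higher in all 3 PDZK1 libraries than in any control library, whereas OAS1 overlaps. Each of these genes is highest in PDZK1 replicate 1, where IFI44L, IFIT1, OAS1 and ISG15 reach 32.9, 101, 13.5 and 17.8 CPM.

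The membrane restriction factors were the role group with the smallest median difference (0.03). IFITM3, which blocks fusion of viruses in endosomes, was one of the most abundant of all 44 genes per length, at 214 FPKM in control, and read 147, 149.6 and 130.2 CPM in control and 188, 141 and 162 CPM in PDZK1. PDZK1 replicate 2 lay among the controls and the other two above them (0.20, edgeR adjusted p = 0.459). IFI6, a small membrane protein, was at 25.5, 36.1 and 21.4 CPM in control and 74.2, 23.8 and 37.0 CPM in PDZK1 (0.70, edgeR adjusted p = 0.587), and PLSCR1, a phospholipid scramblase, at 43.6, 43.1 and 42.8 CPM against 78.4, 47.3 and 51.0 CPM (0.45, edgeR adjusted p = 0.365). PLSCR1 did not overlap between the groups, and IFI6 did. IFITM1 and IFITM2 overlap on the same strand and resemble IFITM3, so their separate values are uncertain.

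Among the other induced proteins, IFI44L, a paralog and neighbor of IFI44, gave the highest estimate of the 42 genes. It had 1.79, 4.24 and 2.65 CPM in control and 32.9, 5.0 and 9.30 CPM in PDZK1. PDZK1 replicate 1 stood 11.4-fold above the control mean and 3.54 times above the next library. The log2 fold change of 2.44 had an interval from −0.04 to 4.92 (edgeR adjusted p = 0.293), and without PDZK1 replicate 1 it was 1.31 (edgeR adjusted p = 0.249). EPSTI1, named for epithelial and stromal interaction, had its estimate in the other direction on few reads, with 12, 12 and 10 counts in control and 0, 0 and 6 in PDZK1 (−2.51, edgeR adjusted p = 0.182). Without PDZK1 replicate 3, both remaining PDZK1 libraries were at 0 counts and the fitted value of −6.56 (edgeR adjusted p = 0.0593) depends on the prior count, and without PDZK1 replicate 1 or 2 it was −1.95 or −1.94. LGALS3BP, a secreted glycoprotein that binds galectins, had the highest FPKM of the 44 genes (226 in control) and differed by 0.12 (95% interval 0.01 to 0.23, edgeR adjusted p = 0.257).

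Groups that did not overlap were found for 11 genes in the higher direction and 2, IRF1 and EPSTI1, in the lower, where 11.6% and 12.3% of all genes tested behaved likewise. The 11 were STAT2, SP110, IFIT1, IFIT5, ISG15, USP18, PLSCR1, SAMD9, SAMD9L, IFI44 and IFI44L. For 12 of the 42 genes the 95% interval lay wholly within 1.5-fold either way, against 10698 of the 13645 genes tested. Without PDZK1 replicate 1, a library singled out for its high values at these genes, this was so for 25 of the 42. For the remaining interferon-stimulated genes of each fit a difference of 1.5-fold was not excluded by the interval at this depth and spread.

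Levels in control were compared with the deviations in PDZK1 replicate 1. By mean FPKM in control, 14 genes lay under 1, 17 between 1 and 10, and 13 at 10 or more. Spearman's rho between the control FPKM of a gene and its log2 deviation in PDZK1 replicate 1 was −0.485 over the 42 genes and −0.109 over all genes tested. The same control libraries enter both quantities, and genes of 1 library are not independent replicates, so no p is given. Abundant LGALS3BP and IFITM3 deviated in that library by 0.18 and 0.40, and scarce OAS1 and RSAD2 by 2.24 and 2.79. The order was not strict, since IFI6, at 31.0 FPKM in control, deviated by 1.46 and IFIT1, at 4.21 FPKM, by 2.35. Other scarce genes lay below the median deviation of 0.74, with 0.30 for BST2, 0.51 for ISG20, 0.66 for IFI27 and −2.77 for EPSTI1. Genes with an ISRE core in a promoter had a median deviation of 0.73 in PDZK1 replicate 1 and those without it 0.66, so the medians of both sets lay close together. Only 10 tested genes were in the set without it. Spacings other than 2 bases were not counted, and the OAS1 promoter, in that set, holds GAAACGAAA. Whether the element plays a part in the deviation was not tested.

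**Figure D4:**
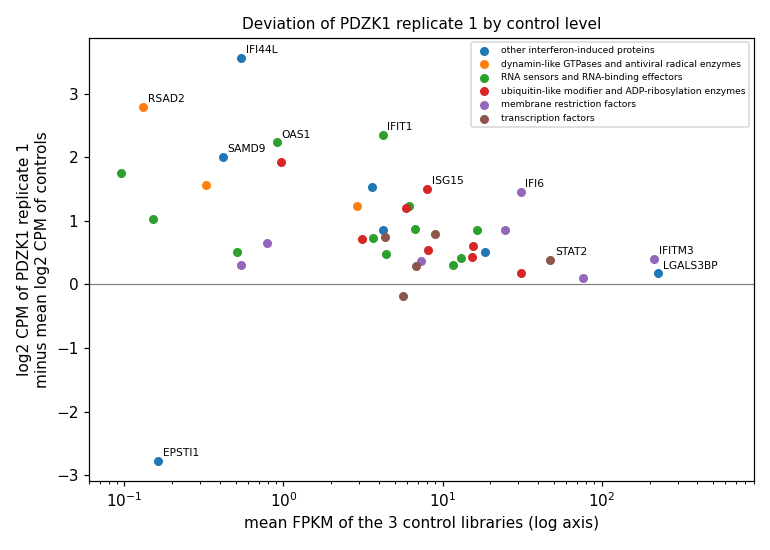
Mean FPKM in the control libraries (x axis, log scale) against the log2 CPM difference of PDZK1 replicate 1 from the control mean (y axis), with a point for each of the 42 tested genes. The highest values, IFI44L at 3.56 and RSAD2 at 2.79, belong to scarce genes, and IFIT1, at 4.21 FPKM in control, follows at 2.35. Scarce EPSTI1 lies lowest at −2.77.

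By position, 25 of the genes lay in 10 clusters whose members were within 200 kb of the next, among them IFIT2, IFIT3, IFIT1 and IFIT5 on chromosome 10 (89283694 to 89421001) and OAS1, OAS3 and OAS2 on chromosome 12 (112906777 to 113011723). The nearest tested protein-coding genes outside the list, 60 in all, were read for comparison. On each side of a gene the nearest without overlap was taken. Distances ran from 29 bases (LIPA to IFIT5) to 3018395 bases (DCDC2C to RSAD2), so not all lie close by. PDZK1 replicate 1 was the highest library for 9 of the 60, a share near the 14.4% of all genes, and exceeded the next library by over 1.5 times for 0. The threshold in edgeR was passed by 3 (5.0%, against 3.83% of all genes), each lower in PDZK1: AGRN beside ISG15 (−0.31, adjusted p = 0.00308), B4GALNT4 beside the IFITM cluster (−0.85, adjusted p = 0.00815) and TIMP2 beside LGALS3BP (−0.26, adjusted p = 0.00534). Of the 44 genes, 13 are overlapped by another protein-coding gene, including CMPK2 with RSAD2 and PARP9 with DTX3L.

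The interferons, the ligands of the pathway, had few or no reads. Of 10 interferon genes, IFNB1, IFNA2, IFNK, IFNW1, IFNG, IFNL1, IFNL2 and IFNL3 were at 0 counts in all libraries, which allows up to 3 counts per library. IFNA1 had 8, 2 and 1 counts in control and 1, 4 and 4 in PDZK1. IFNE, an interferon that epithelia express constitutively, was the ligand with measurable reads, at 4.71, 4.18 and 4.82 CPM in control and 4.78, 4.70 and 6.87 CPM in PDZK1. Its highest library was PDZK1 replicate 3 and not replicate 1 (0.26, edgeR adjusted p = 0.516). IFNE overlaps MIR31HG on the same strand, so its reads may include reads of that RNA.

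The receptors and kinases were expressed and differed little. Log2 fold changes were 0.05 for IFNAR1 and −0.07 for IFNAR2, the chains of the type I receptor, 0.09 for IFNGR1 and 0.00 for IFNGR2, those of the type II receptor, and 0.24 for IFNLR1 and −0.05 for IL10RB, those of the type III receptor. The 95% intervals of all 6 lay within 1.5-fold either way, as did those of 10698 of the 13645 genes tested. JAK1 and TYK2 differed by −0.06 and −0.02.

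Over the 72 further genes of the pathway, 54 were tested, and 1 rose and 1 fell, a share of 3.7% that was near the 3.83% of all genes tested. The median log2 fold change was 0.06. IFI16, a nuclear sensor of DNA, was at 17.2, 21.9 and 18.6 CPM in control and 27.7, 30.1 and 26.1 CPM in PDZK1. Each PDZK1 library was above the controls and PDZK1 replicate 2 was the highest. The log2 fold change was 0.54 (SE 0.10, edgeR adjusted p = 0.0148), and the call was lost in edgeR without control replicate 1 (adjusted p = 0.0543), PDZK1 replicate 1 (adjusted p = 0.0788) or PDZK1 replicate 2 (adjusted p = 0.0575), and in each of the 3 limma fits on FPKM. Without 1 library the estimate stayed between 0.47 and 0.65. IFI30, a lysosomal thiol reductase that prepares antigens, was at 11.5, 10.5 and 14.7 CPM in control and 4.68, 5.31 and 5.36 CPM in PDZK1. It was lower in every PDZK1 library, by 1.26 on the log2 scale (−1.26, SE 0.14, edgeR adjusted p = 0.00157), and it overlaps AC007192.1 on the same strand. Of the 4 chemokine genes listed, none of which passed the count filter, CXCL9 and CCL5 were at 0 counts in all libraries. CXCL10 and CXCL11 were at 0 counts in each control library and had few reads in PDZK1, with 4, 0 and 3 counts for CXCL10 and 6, 6 and 3 for CXCL11. PDZK1 replicate 1 was the highest library for 29 of the 54 pathway genes (53.7%), against 14.4% of all genes tested. By role this held for 13 of 19 other induced genes, 4 of 6 receptors and 6 of 12 sensors and adaptors. It held for 5 of 11 negative regulators, 1 of 5 kinases and STATs and 0 of 1 ligand. These are ranks, and the sizes were small. The median pathway gene lay 1.09-fold above the control mean in that library, against 1.67-fold for the interferon-stimulated genes. Only 3 of the 54 were over 1.5 times the next highest library, against 18 of those 42 genes. For the 4 receptors this ratio was 1.009 to 1.053.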

How the data were processed

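RNA-seq of ARPE-19 cells was analysed from 2 tables that the authors deposited, with 3 libraries per group. The estimated counts per gene were deposited by the authors as whole numbers with no scaling for depth, and the FPKM values, which scale fragments by transcript length and library size, were also deposited by the authors. The submitters' processing notes name fastp 0.20.1, HISAT2 2.2.1 and GRCh38, whereas the counting program and the strandedness are not given in the sources used here. In each table, 3 further columns of per-sample values match none of the samples and were not used. Libraries were made from total RNA with a VAHTS kit.

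Entries named as assembled loci (853 of 21314, 0.519% to 0.536% of counts) were left out. Genes were kept with filterByExpr (13645), scaled by TMM and tested with the robust quasi-likelihood test of edgeR 4.0.16 in R 4.3.3 without covariates. P-values were adjusted by Benjamini-Hochberg over all genes tested, with a threshold of 0.05. CPM used the TMM-scaled library sizes, and deviations between libraries used log2 CPM with a prior count of 2. Floors of 3 counts and all intervals of counts cover counting error only, and intervals of fold changes come from the model. The fit was tested on simulated data. Positions are those of GENCODE release 29, 1-based.

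The members, roles and pathway list were chosen with earlier results of these data known. The genes named are those past the threshold, those under the count filter and, in each role group, the one with the highest mean FPKM and up to 2 others with the largest log2 fold changes. In the pathway list they are the genes past the threshold, JAK1, TYK2, the ligands and the receptors (1 further gene of the rule is not reported here), and neighbors are named where they passed. Other genes named were chosen after their values were seen. Alternatives were DESeq2 1.42.0, limma-voom, limma 3.58.1 with a trend on log2 FPKM (pseudocounts of 1 and 0.1, mean FPKM of at least 0.5 or no filter), other scalings and count filters, a non-robust fit, assembled loci kept, a fold change over 1.5, a replicate block and leaving out each library.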

Additional observations from a re-analysis of the deposited data

How the results depend on the processing

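SAMD9 passed the threshold in every alternative run, with log2 fold changes from 0.71 on the log2(FPKM + 1) scale, which understates low genes, to 1.81. Of 776 values of single genes under alternatives, which include IFI16 and IFI30, 752 kept their direction and side of the threshold. As only 1 of the 42 interferon-stimulated genes passed in the edgeR fit, staying below the threshold was the likely outcome and says little. The 14 values that turned in direction, in 12 genes, came from leaving out 1 library. Without PDZK1 replicate 1 these were IRF7 (−0.036), DDX60 (−0.024), DDX60L (−0.141), OAS2 (−0.105), MX1 (−0.531), PARP9 (−0.038), IFITM2 (−0.005) and IFI35 (−0.075), against highest values without another library of 0.450, 0.485, 0.187, 1.403, 0.657, 0.325, 0.078 and 0.278. The ranges over libraries left out were −0.23 to 0.01 for UBE2L6, −1.20 to 0.24 for IFI27, −0.32 to 0.20 for IFITM1, −0.017 to 0.078 for IFITM2 and −0.88 to 0.13 for BST2. The number of interferon-stimulated genes past the threshold was 3 with DESeq2 (SAMD9, SAMD9L and STAT2), 2 with library totals alone and 1 to 2 without 1 library, and the median log2 fold change ran from 0.09 to 0.51 without 1 library. In the pathway list 1 gene passed in each of the 3 FPKM fits and at a fold change over 1.5, and 1 to 3 without 1 library. Over all genes 814 passed with DESeq2, 191, 187 and 184 in the FPKM fits with pseudocount 1, 0.1 and without the filter, 171 at a fold change over 1.5, and 181 to 875 without 1 library, the highest without control replicate 3. Of the genes called, 37.0% were higher with TMM and 46.6% with library totals. Same-numbered libraries did not deviate together (residual correlations −0.046, −0.056 and −0.143). A pairing by number was thus not seen, though residuals centred within groups of 3 cannot exclude it. With the replicate block 163 genes passed over all, 1 of them an interferon-stimulated gene (SAMD9, 1.64, adjusted p = 0.00963), and the median was 0.27. The cause of these changes was not tested. With 3 libraries per group, 1 of which carries much of the spread, differences under 1.5-fold could be bounded for 12 of the 42 genes. The same held for 10698 of the 13645 genes tested.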

Other observations

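Over all genes tested, the 47 for which PDZK1 replicate 1 exceeded the next highest library by over 1.5 times included 18 of the 42 interferon-stimulated genes tested, or 38.3% of the 47 and 42.9% of the 42. The largest ratio among the 47 was that of BEST1, at 63.8, followed by PCDHGA4, a protocadherin, at 5.26. LGALS9, a galectin that interferons induce in many cells and that is in neither list, was at 1.84 times the next library, with a log2 fold change of 0.82 over the groups (edgeR adjusted p = 0.369). These genes were chosen after their values were seen, and the cause of the high values in this library was not tested.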
